A study of Homo sapiens with 15 samples.

Results

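The collagen chain genes described here are the entries of the deposited expression table whose symbol consists of COL, a number, A and another number, with nothing else. The rule read the symbol alone and found 44 genes among 33158 gene symbols. Grouped by the structure of the protein, they comprised 11 fibrillar chains, 6 basement membrane chains, 5 beaded filament chains, 10 fibril-associated collagens with interrupted triple helices (FACIT), 3 short-chain network chains, 1 anchoring fibril chain, 4 transmembrane chains, 2 multiplexins and 2 other chains. Antisense entries and pseudogenes with a collagen name fell outside the rule, and the highest of these in any library was COL6A4P1 at 0.191 FPKM.

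RNA sequencing of oligo(dT)-selected RNA was carried out on 15 libraries from 3 triple-negative breast cancer cell lines, to compare cancer stem cells (CSCs) with the other tumour cells. SUM149PT, spelled SUM149 in the labels and derived from an inflammatory breast carcinoma, and HCC1937, derived from a ductal breast carcinoma, were each sorted by flow cytometry into CSCs, gated as CD44+/CD24-/low, and non-CSCs, which were the remaining cells. SUM159PT, spelled SUM159 in the labels and derived from an anaplastic breast carcinoma, was not sorted and carries the CSC label as a whole. The 5 groups were therefore SUM149PT CSC, SUM149PT non-CSC, HCC1937 CSC, HCC1937 non-CSC and SUM159PT, with 3 libraries each, and the labels do not say whether the 3 came from separate cultures, so that p-values measure only the spread between these libraries. Levels are given in FPKM, fragments counted per kilobase of transcript and scaled to the mapped fragments of the library, a unit in which different genes can be set side by side.

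The SUM159PT libraries stood apart from the others before any collagen was considered. Their FPKM values summed to 634746 to 652082 over all genes, against 291276 to 366532 in the 12 sorted libraries, and 8534 to 8670 genes reached 1 FPKM, against 11249 to 11997. Absolute sequencing depth is unknown, and no counting interval is given. The 8 widely expressed genes that were checked were above 0 in every library, and no pair of libraries held identical values.

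The sort and the subtype labels were checked first. CD24, the surface glycoprotein that the CSC gate selects against, stood at 7.97, 7.64 and 7.61 FPKM in the SUM149PT CSC libraries and at 147, 137 and 134 FPKM in the non-CSC libraries, and at 23.6, 22.5 and 23.9 FPKM against 167, 141 and 142 FPKM in HCC1937. CD24 was thus lower in every CSC library of both lines. CD44, the hyaluronan receptor that the gate selects for, rose by 0.39 ± 0.06 (SE) on the log2 scale in SUM149PT CSCs (adjusted p = 0.00168), while the HCC1937 difference of 0.12 ± 0.08 did not pass the test (adjusted p = 0.314); the difference between the lines was 0.27 ± 0.09 (adjusted p = 0.0248). In SUM159PT, CD24 lay at 0.682 to 0.759 FPKM and CD44 at 28.4 to 29.4 FPKM, below every sorted library for both genes. Of the receptors absent by definition from triple-negative tumours, PGR did not exceed 0.00303 FPKM in any library, ESR1 reached 1.86 FPKM in HCC1937 non-CSC replicate 1, and ERBB2, which is judged clinically by amplification or protein, ranged from 3.39 to 20.00 FPKM.

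Collagens are secreted or membrane proteins whose chains wind in threes, of 1 kind or of several, into a triple helix, so the chains of a trimer are best read together. Fibrillar collagens form the fibres of connective tissue, network collagens form the sheet of the basement membrane on which epithelial cells sit, and the remaining classes link, cap or anchor these structures or span the cell membrane. In carcinomas collagen is made by stromal fibroblasts and also by the tumour cells, and breast epithelial cells normally lay down basement membrane collagen.

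Summed over the 44 genes, collagen amounted to 1232 ± 22.9 FPKM (SD, n = 3) in SUM149PT CSCs and to 508 ± 20.9 FPKM in SUM149PT non-CSCs. The sum was 437 ± 16.7 FPKM in HCC1937 CSCs, 369.9 ± 27.2 FPKM in HCC1937 non-CSCs and 486 ± 41.1 FPKM in SUM159PT. SUM149PT CSCs therefore held the highest summed level in each of their libraries, with no overlap with another group. As a share of all FPKM the same sums were 0.407%, 0.163%, 0.136%, 0.106% and 0.0754% in that order, so SUM159PT, whose library totals were larger, came last on this measure.

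Collagen expression was concentrated in few genes and the leading gene differed between groups. COL7A1, the anchoring fibril chain, made up 21.3% of the summed collagen FPKM in SUM149PT CSCs. COL6A2, a beaded filament chain, led in the other groups with 19.3% in SUM149PT non-CSCs, 32.0% in HCC1937 CSCs, 34.4% in HCC1937 non-CSCs and 21.8% in SUM159PT. Fibrillar chains accounted for 33.1% of collagen FPKM in SUM149PT CSCs, against 20.8% in SUM149PT non-CSCs, 15.4% in HCC1937 CSCs, 8.98% in HCC1937 non-CSCs and 11.5% in SUM159PT. Beaded filament chains showed the reverse order within the sorted lines, at 19.0%, 38.4%, 59.2% and 62.4%, and reached 37.4% in SUM159PT.

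**Figure D1:**
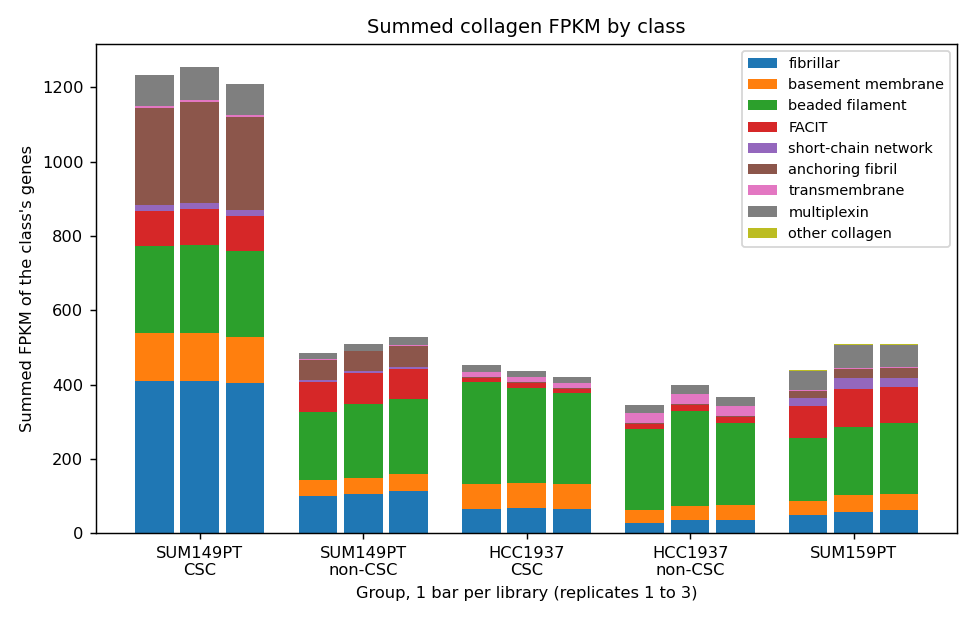
Stacked bars of the summed FPKM of each collagen class in the 15 libraries, 1 bar per library, grouped by cell line and fraction. The 3 SUM149PT CSC bars reach 1209 to 1254 FPKM, above the 345 to 528 FPKM of the other libraries, and beaded filament chains fill most of the HCC1937 bars.

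Of the 44 genes, 24 averaged 1 FPKM or more in at least 1 group and are described with their values. The other 20 reached at most 1.17 FPKM in any library, and 3 of them, COL6A5, COL9A1 and COL10A1, were listed at 0 in all 15 libraries. Genes averaging 10 FPKM or more numbered 16 in SUM149PT CSCs, 10 in SUM149PT non-CSCs, 7 in HCC1937 CSCs, 6 in HCC1937 non-CSCs and 10 in SUM159PT.

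**Figure D2:**
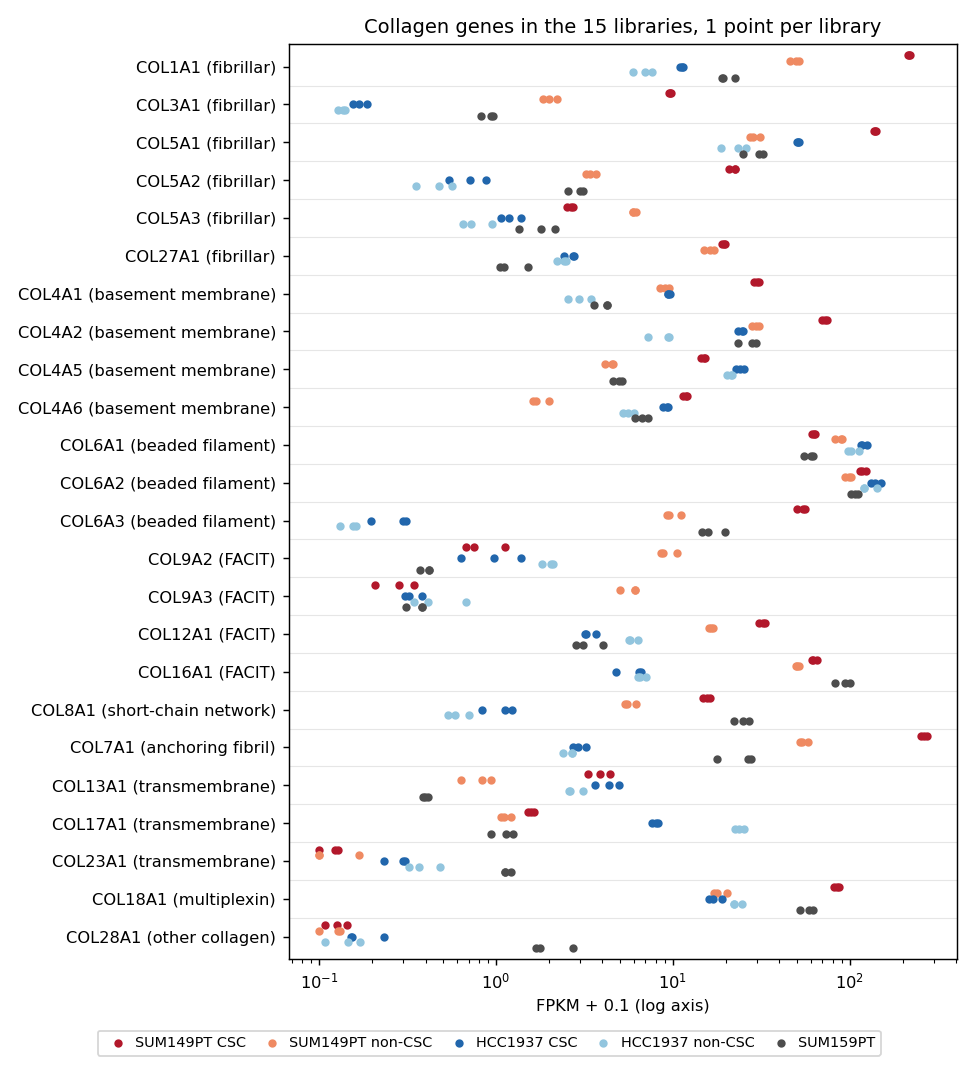
FPKM + 0.1 on a log axis for the 24 named collagen genes, 1 point per library coloured by group, 15 points per gene. COL7A1 spans 2.28 to 273 FPKM and COL6A3 0.0313 to 55.8 FPKM across libraries, while COL6A1 and COL6A2 stay between 55.2 and 149 FPKM.

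CSC and non-CSC libraries were compared within each sorted line with limma on log2(FPKM + 0.1), a scale that understates the change of low genes, and a gene was called when its p adjusted over all genes tested was at most 0.05. In SUM149PT, 27 of the 44 genes passed the minimum mean of 0.1 FPKM and were tested. Of these, 18 rose in CSCs, where 33.3% of all 16037 genes tested were called higher, and 7 fell, where 41.5% of all genes were called lower. Their median difference was 0.97, against −0.11 over all genes. In HCC1937, 27 genes were tested as well, of which 10 rose (10.3% of all 15582 genes called higher) and 5 fell (15.3% called lower), with a median of 0.20 against −0.03. The 17 untested genes of each line stayed below that mean. Because the RNA is from bulk fractions, fewer cells that express a gene and less RNA per cell cannot be told apart.

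The lines were then compared for the size of the CSC effect, by the interaction of line and fraction over the 12 sorted libraries. The effect was more positive in SUM149PT for 14 of 29 genes tested, where 28.1% of all genes were called in that direction, and more negative for 8, where 33% were. The scaling of the libraries moved the median of all genes from −0.11 to 0.10 under quantile normalization in SUM149PT and from −0.03 to 0.09 under rescaling to TPM in HCC1937. The share of higher calls among all calls went from 44.6% to 54.9% in SUM149PT under quantile normalization, and in HCC1937 from 40.3% to 56.1% under TPM and to 53.0% under quantile normalization. The collagen counts were 18 and 7 in SUM149PT under each of the 4 scalings, and in HCC1937 they ran from 10 to 11 higher and from 3 to 5 lower. No named collagen changed direction within a line under any of the 4.

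**Figure D3:**
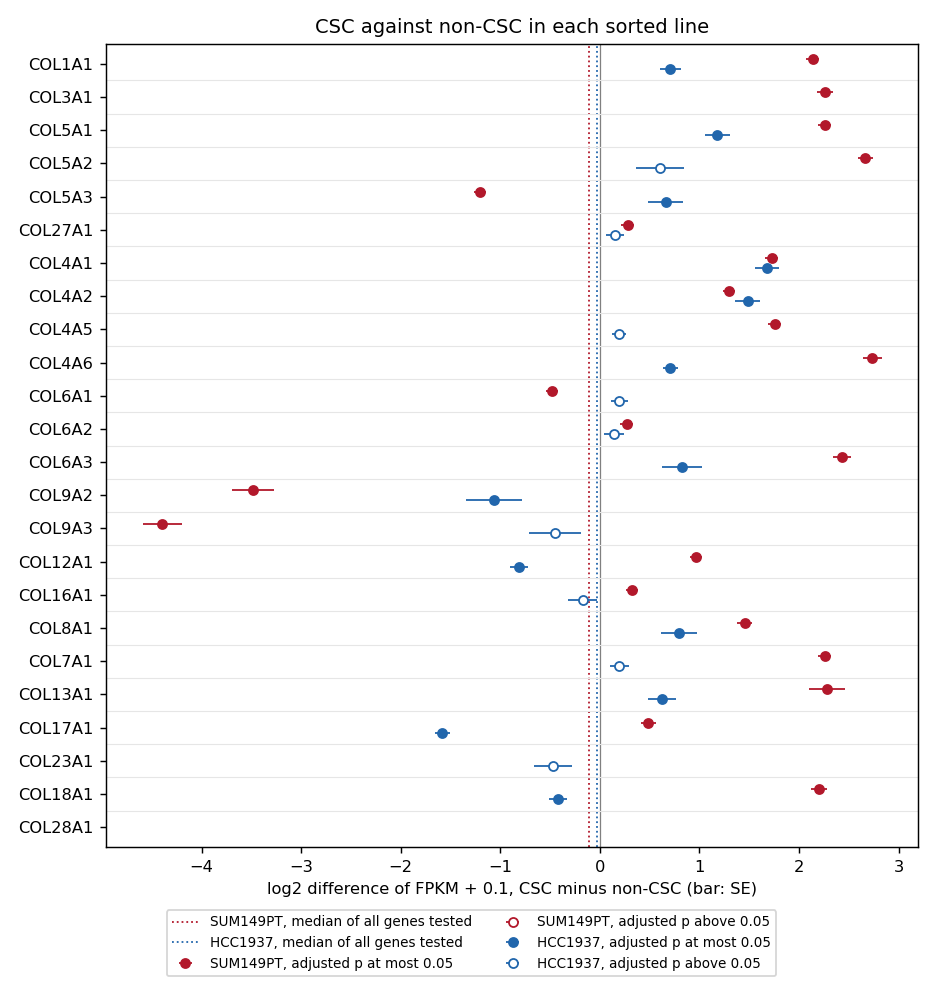
Difference between CSC and non-CSC libraries on the log2(FPKM + 0.1) scale, with its standard error, for the named collagen genes in SUM149PT and HCC1937. Filled points have an adjusted p of at most 0.05, dotted lines mark the median of all genes (−0.11 and −0.03), and genes below the minimum mean in a line, such as COL28A1, have no point.

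Among fibrillar chains, COL1A1, the major chain of type I collagen, reached 216, 219 and 213 FPKM in SUM149PT CSCs and 45.95, 49.5 and 51.7 FPKM in SUM149PT non-CSCs. In HCC1937 it stood at 11.2, 11.1 and 10.8 FPKM in CSCs and 5.83, 6.88 and 7.57 FPKM in non-CSCs, and in SUM159PT at 18.9, 19.2 and 22.3 FPKM. Every CSC library was above every non-CSC library of its line, and in FPKM the 3 lines did not overlap. The COL1A1 difference between SUM159PT and HCC1937 CSCs turned under TPM, with the value given below. COL1A1 rose by 2.14 ± 0.06 (SE) in SUM149PT CSCs (adjusted p = 3.8e-06), a ratio of means of 4.40, and by 0.71 ± 0.11 in HCC1937 CSCs (adjusted p = 0.00667), a ratio of 1.63. The effect was larger in SUM149PT by 1.43 ± 0.13 (adjusted p = 6.0e-06).

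COL1A2 encodes the partner chain of COL1A1 in the usual type I trimer. It was far below COL1A1 in every group, at 0.0630, 0.123 and 0.119 FPKM in SUM149PT CSCs, 0.0390, 0.0152 and 0.0474 FPKM in non-CSCs and 0 to 0.00768 FPKM in SUM159PT. Each SUM149PT CSC library was above each non-CSC library. It was highest in HCC1937 CSCs, at 0.833, 1.03 and 0.722 FPKM, against 0.197, 0.303 and 0.173 FPKM in HCC1937 non-CSCs, with no overlap. The rise in HCC1937 was 1.58 ± 0.19 (SE) (adjusted p = 0.00292), and SUM149PT was below the minimum for a test; the interaction was −0.99 ± 0.26 (adjusted p = 0.00837), not called under TPM or quantile scaling or with a pseudocount of 0.01 (adjusted p from 0.0641 to 0.388). The level of COL1A1 over that of COL1A2 was 13.1 ± 2.15 (SD, n = 3) in HCC1937 CSCs and 32.0 ± 10.7 in non-CSCs, and in the other groups COL1A2 was too low for a ratio.

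COL3A1, the chain of the homotrimeric type III collagen that accompanies type I in soft tissue, gave 9.70, 9.52 and 9.46 FPKM in SUM149PT CSCs and 1.91, 1.75 and 2.11 FPKM in non-CSCs. It was at most 0.0880 FPKM in HCC1937 and lay at 0.728, 0.832 and 0.859 FPKM in SUM159PT. COL3A1 rose by 2.26 ± 0.08 (SE) in SUM149PT CSCs (adjusted p = 5.8e-06), higher in 3 of 3 libraries, and its effect exceeded that in HCC1937 by 1.92 ± 0.12 (adjusted p = 6.5e-07). Its HCC1937 means, 0.0706 FPKM in CSCs and 0.0347 FPKM in non-CSCs, lie below the pseudocount of 0.1. The scale therefore understates the HCC1937 difference, and the size of the interaction depends on it.

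COL5A1 and COL5A2 form type V collagen, which sits inside type I fibrils and limits their width. COL5A1 was at 139.6, 138 and 137 FPKM in SUM149PT CSCs and 27.3, 28.2 and 31.04 FPKM in non-CSCs, and COL5A2 at 22.2, 20.8 and 22.5 FPKM against 3.15, 3.31 and 3.599 FPKM. In HCC1937 CSCs COL5A1 was at 49.99, 51.8 and 50.7 FPKM and in non-CSCs at 18.7, 23.3 and 25.7 FPKM, again without overlap. COL5A2 was low there and its fractions overlapped, with 0.444, 0.774 and 0.616 FPKM in CSCs and 0.255, 0.465 and 0.379 FPKM in non-CSCs. The chains thus moved together in SUM149PT, by 2.26 ± 0.07 (SE) and 2.67 ± 0.07 (adjusted p = 3.8e-06 and 3.1e-06). In HCC1937 COL5A1 rose by 1.18 ± 0.13 (adjusted p = 0.00202) and COL5A2 differed by 0.61 ± 0.24, which did not pass (adjusted p = 0.128), although it did with the replicate number as a block (adjusted p = 0.0163), which ended the calls of COL11A2, COL13A1 and COL18A1 in that line, and in a fit over all 15 libraries (adjusted p = 0.0204). The effect on COL5A2 was larger in SUM149PT by 2.06 ± 0.27 (adjusted p = 9.3e-05). SUM159PT held COL5A1 at 24.9, 30.4 and 32.4 FPKM and COL5A2 at 2.44, 2.89 and 2.99 FPKM. COL5A1 exceeded COL5A2 in every library, by a ratio of 6.33 ± 0.279 (SD, n = 3) in SUM149PT CSCs, 8.60 ± 0.0792 in non-CSCs, 10.5 ± 0.315 in SUM159PT, 87.3 ± 23.2 in HCC1937 CSCs and 63.7 ± 12.2 in HCC1937 non-CSCs.

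COL5A3, a less common type V chain, went the other way in SUM149PT, with 2.41, 2.61 and 2.57 FPKM in CSCs and 6.13, 5.86 and 5.84 FPKM in non-CSCs. HCC1937 held 1.09, 1.28 and 0.965 FPKM in CSCs and 0.621, 0.846 and 0.548 FPKM in non-CSCs. It fell by 1.20 ± 0.06 (SE) in SUM149PT CSCs (adjusted p = 1.7e-05) and rose by 0.66 ± 0.17 in HCC1937 CSCs (adjusted p = 0.042), the groups not overlapping in either line, and the effects differed by −1.86 ± 0.19 (adjusted p = 1.8e-05). The HCC1937 call was lost without any of CSC replicates 1, 2 and 3 or non-CSC replicates 1 and 3 (adjusted p from 0.0584 to 0.126) and without a minimum (0.148).

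COL27A1, a fibrillar chain best known from cartilage, was at 19.6, 19.4 and 18.96 FPKM in SUM149PT CSCs and 14.9, 16.01 and 16.9 FPKM in non-CSCs, and at 0.958 to 2.66 FPKM in the other lines. The rise in SUM149PT was small, 0.28 ± 0.07 (SE) or 0.39 relative to the median of all genes (adjusted p = 0.0102), and was not called in a fit over all 15 libraries (adjusted p = 0.0517); the HCC1937 difference was 0.16 ± 0.09 (adjusted p = 0.266) and the interaction 0.12 ± 0.11 (adjusted p = 0.345). COL11A2, of cartilage fibrils and named here after its values were seen, was listed at 0 in all SUM149PT CSC and SUM159PT libraries and at 0, 0 and 1.17 FPKM in SUM149PT non-CSCs, so that 1 library carried its level there. In HCC1937 it was at 0, 0 and 0.167 FPKM in CSCs and 0.394, 0.348 and 0.302 FPKM in non-CSCs, a fall by 1.69 ± 0.41 (adjusted p = 0.0321) that was not called without CSC replicate 1 or 2 or non-CSC replicate 1, 2 or 3 (adjusted p from 0.0758 to 0.102), with an interaction of 0.46 ± 1.20 (adjusted p = 0.76) that was −0.0173 with a pseudocount of 1. COL11A2 passed the minimum in HCC1937 only through its non-CSC libraries, with means of 0.0558 FPKM in CSCs and 0.348 FPKM in non-CSCs. The HCC1937 call was also lost with a pseudocount of 0.01 (adjusted p = 0.0808), TPM (0.0649), the replicate block (0.0763), no minimum (0.136) and a fit over all 15 libraries (0.116).

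Basement membrane chains come in pairs of genes that lie head to head. In the annotation, 126 bases separate COL4A1 and COL4A2 on chromosome 13, 135 bases COL4A3 and COL4A4 on chromosome 2, and 379 bases COL4A5 and COL4A6 on the X chromosome. COL4A1 and COL4A2 make the common type IV trimer. COL4A1 was at 30.4, 29.9 and 28.7 FPKM in SUM149PT CSCs and 8.94, 8.39 and 9.37 FPKM in non-CSCs, and at 9.28, 9.56 and 9.31 FPKM in HCC1937 CSCs and 2.46, 3.36 and 2.84 FPKM in non-CSCs. COL4A2 followed it, with 72.4, 73.8 and 69.8 FPKM and 27.7, 29.5 and 30.6 FPKM in SUM149PT and 24.8, 24.4 and 23.3 FPKM and 7.15, 9.45 and 9.32 FPKM in HCC1937. Every CSC library of a line was above its non-CSC libraries for both genes, and HCC1937 CSCs reached about the COL4A1 level of SUM149PT non-CSCs.

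COL4A1 rose in CSCs by 1.73 ± 0.06 (SE) in SUM149PT (adjusted p = 7.1e-06) and by 1.68 ± 0.12 in HCC1937 (adjusted p = 0.000565). COL4A2 rose by 1.30 ± 0.06 (adjusted p = 1.5e-05) and 1.48 ± 0.12 (adjusted p = 0.000884). The CSC effects of the lines differed by 0.05 ± 0.14 for COL4A1 (adjusted p = 0.791), a difference that was −0.0500 under TPM and −0.0653 without HCC1937 non-CSC replicate 2, and by −0.19 ± 0.14 for COL4A2 (adjusted p = 0.275), neither past the test. The ratio of COL4A1 to COL4A2 was 0.412 ± 0.00735 (SD, n = 3) in SUM149PT CSCs, 0.304 ± 0.0190 in non-CSCs, 0.388 ± 0.0132 in HCC1937 CSCs, 0.334 ± 0.0268 in non-CSCs and 0.147 ± 0.00489 in SUM159PT, where COL4A1 stood at 3.49, 4.15 and 4.15 FPKM and COL4A2 at 23.2, 29.4 and 27.9 FPKM.

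COL4A5 and COL4A6, chains of the type IV trimers of some epithelial and smooth muscle basement membranes, were read side by side. COL4A5 stood at 14.9, 15.04 and 14.3 FPKM in SUM149PT CSCs and 4.03, 4.43 and 4.46 FPKM in non-CSCs, and COL4A6 at 11.9, 11.4 and 11.8 FPKM against 1.53, 1.59 and 1.91 FPKM. In HCC1937 COL4A5 was high in both fractions, with 22.7, 25.1 and 23.9 FPKM in CSCs and 20.03, 21.4 and 21.3 FPKM in non-CSCs, while COL4A6 was at 9.29, 8.72 and 9.22 FPKM and 5.14, 5.50 and 5.93 FPKM. SUM159PT held 4.51, 4.84 and 5.03 FPKM of COL4A5 and 5.995, 7.17 and 6.57 FPKM of COL4A6, and was the only group of the 5 with more COL4A6 than COL4A5, in each of its libraries. In SUM149PT CSCs COL4A5 rose by 1.75 ± 0.06 (SE) (adjusted p = 6.6e-06) and COL4A6 by 2.74 ± 0.09 (adjusted p = 5.2e-06), the largest rise of a collagen there. In HCC1937 CSCs COL4A6 rose by 0.71 ± 0.08 (adjusted p = 0.0022), and the COL4A5 difference of 0.19 ± 0.07 did not pass (adjusted p = 0.111). A fit over all 15 libraries called the COL4A5 difference (adjusted p = 0.0429). The effect was larger in SUM149PT by 1.56 ± 0.09 for COL4A5 and 2.03 ± 0.12 for COL4A6 (adjusted p = 3.3e-07 and 4.4e-07).

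COL4A3 and COL4A4, best known from the kidney glomerulus, were low throughout and moved against the other type IV chains in SUM149PT. COL4A3 was at 0.0380, 0.0246 and 0.0438 FPKM in CSCs and 0.288, 0.360 and 0.384 FPKM in non-CSCs, and COL4A4 at 0.119, 0.0904 and 0.113 FPKM and 0.285, 0.317 and 0.288 FPKM. COL4A3 passed the minimum only through its non-CSC libraries, with means of 0.0355 FPKM in CSCs and 0.344 FPKM in non-CSCs. Both genes fell, by 1.71 ± 0.11 (SE) and 0.94 ± 0.08 (adjusted p = 4.0e-05 and 0.000118), and were below the minimum for a test in HCC1937. Their interactions were −1.45 ± 0.24 and −0.81 ± 0.16 (adjusted p = 0.000526 and 0.00143), with HCC1937 levels below 0.1 FPKM; the first was not called with a pseudocount of 0.01 and the other not under quantile normalization (adjusted p = 0.0875 and 0.0631). Of the 6 type IV chains 4 rose and 2 fell in SUM149PT CSCs, where 33.3% of all genes were called higher and 41.5% lower.

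The bases before the start of COL4A5 are shown because the CSC effect on the gene was larger in SUM149PT, with a ratio of means of 3.43 there; like the other sequences printed here it was chosen after its values were seen. It covers 250 bases of GRCh38.p14 upstream of the start, chrX:108439588-108439837 on the plus strand, with no annotated exon. Capitals mark the motifs searched on both strands, here 2 matches of CCAAT, which reads ATTGG on the other strand. CCAAT occurred in 32.0% of 35116 such windows of all genes in RefSeq, and a match is a description of the letters only.
COL4A5: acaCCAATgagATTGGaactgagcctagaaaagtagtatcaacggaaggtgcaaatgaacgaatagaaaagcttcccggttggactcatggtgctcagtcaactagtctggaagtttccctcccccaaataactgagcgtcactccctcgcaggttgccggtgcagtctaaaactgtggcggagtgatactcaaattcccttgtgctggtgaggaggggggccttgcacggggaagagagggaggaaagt

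Beaded filament chains form type VI collagen, a microfibril that surrounds cells and binds to basement membranes. COL6A1 was at 63.5, 62.9 and 60.8 FPKM in SUM149PT CSCs and 82.2, 89.9 and 89.4 FPKM in non-CSCs, and at 124, 117 and 115 FPKM in HCC1937 CSCs, 97.7, 113 and 101 FPKM in non-CSCs and 55.2, 61.9 and 59.97 FPKM in SUM159PT. COL6A2 was at 114, 124 and 117 FPKM and 93.8, 98.8 and 101 FPKM in SUM149PT, 149, 139 and 131 FPKM and 119.6, 142 and 119.6 FPKM in HCC1937 and 101, 107 and 111 FPKM in SUM159PT. These chains were thus abundant in all 15 libraries, between 55.2 and 149 FPKM. COL6A1 fell by 0.48 ± 0.06 (SE) in SUM149PT CSCs (adjusted p = 0.000755), −0.37 relative to the median of all genes, while COL6A2 rose by 0.27 ± 0.06, or 0.38 relative to that median (adjusted p = 0.00928). In HCC1937 neither passed: the difference was 0.20 ± 0.08 for COL6A1 (adjusted p = 0.145), which was called under TPM, upper quartile and quantile scaling (adjusted p from 0.0298 to 0.0451), and 0.14 ± 0.10 for COL6A2 (adjusted p = 0.374). The COL6A1 effects differed between lines by −0.68 ± 0.10 (adjusted p = 0.000183) and the COL6A2 effects by 0.13 ± 0.12 (adjusted p = 0.361).

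COL6A3, the third chain of the type VI trimer, was far more variable. It was at 55.8, 50.4 and 54.2 FPKM in SUM149PT CSCs, 9.42, 9.18 and 11.02 FPKM in non-CSCs and 14.4, 15.6 and 19.5 FPKM in SUM159PT. In HCC1937 it was at 0.0972, 0.211 and 0.198 FPKM in CSCs and 0.0313, 0.0560 and 0.0615 FPKM in non-CSCs, beside at least 97.7 FPKM of COL6A1 in each library. The groups were separate in every comparison. COL6A3 rose by 2.43 ± 0.09 (SE) in SUM149PT CSCs (adjusted p = 7.1e-06) and differed by 0.82 ± 0.20 in HCC1937 CSCs (adjusted p = 0.0329), where group means of 0.169 and 0.0496 FPKM put it just above the minimum for a test; the latter was not called without non-CSC replicate 1, 2 or 3 (adjusted p from 0.0701 to 0.106), and without CSC replicate 2 or 3 the gene fell below the minimum for a test. It was also lost with a pseudocount of 1, without a minimum and with an eBayes trend (adjusted p = 0.127, 0.128 and 0.139). The interaction was 1.61 ± 0.23 (adjusted p = 0.000192), and 0.89 with a pseudocount of 0.01 (adjusted p = 0.0849). COL6A1 exceeded COL6A3 by a ratio of 1.17 ± 0.0695 (SD, n = 3) in SUM149PT CSCs, 8.87 ± 0.854 in non-CSCs and 3.62 ± 0.473 in SUM159PT.

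**Figure D4:**
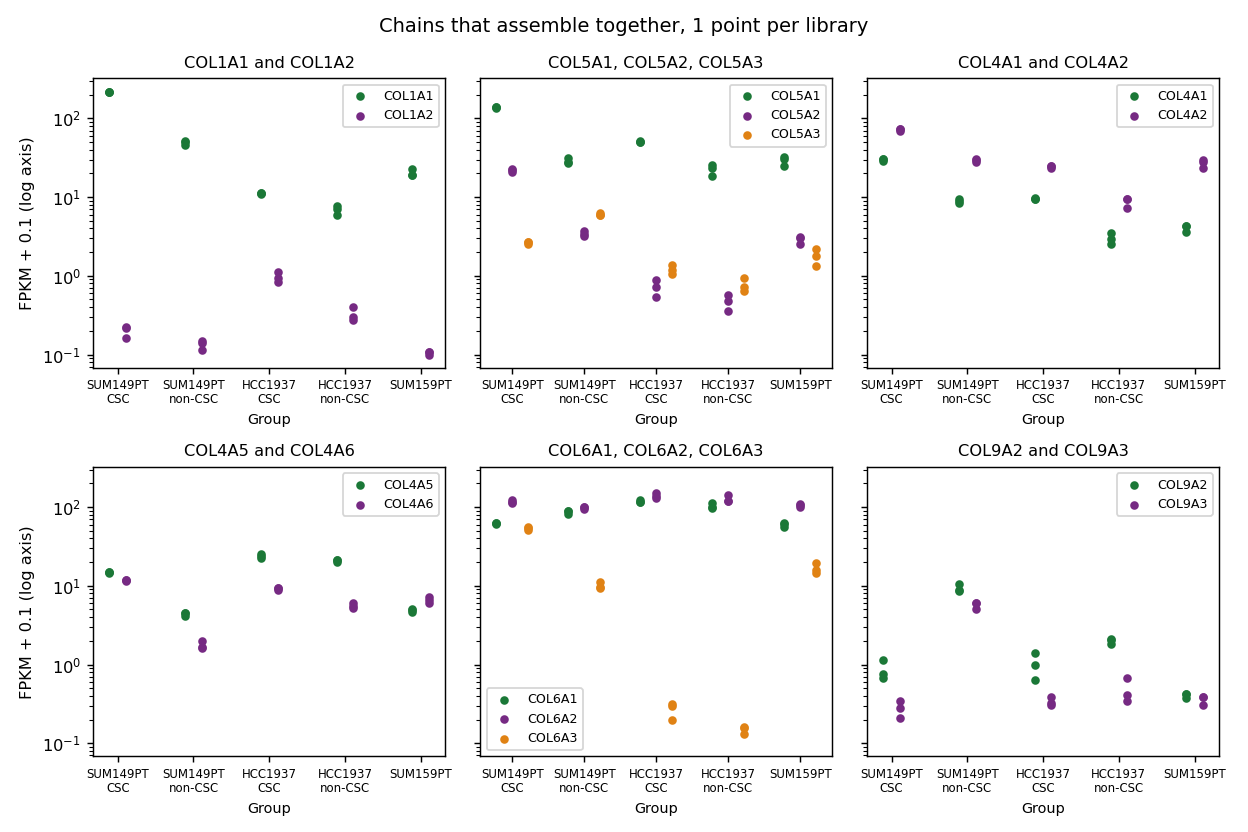
FPKM of collagen chains that assemble together, 6 panels, with the libraries of each group side by side. COL4A1 stays below COL4A2 in each library (ratios from 0.141 to 0.420), and COL6A3 falls to 0.211 FPKM or less in HCC1937 while COL6A1 and COL6A2 stay at 97.7 FPKM or more.

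FACIT collagens sit on the surface of fibrils or at basement membranes. COL9A2 and COL9A3, chains of the type IX collagen of cartilage, had the largest falls of any collagen in SUM149PT CSCs. COL9A2 was at 1.03, 0.573 and 0.647 FPKM in CSCs and 8.72, 10.4 and 8.49 FPKM in non-CSCs, and COL9A3 at 0.243, 0.182 and 0.108 FPKM and 5.97, 6.002 and 4.95 FPKM. Both were highest in SUM149PT non-CSCs among the 5 groups, and COL9A1, the third chain, was listed at 0 there. COL9A2 fell by 3.49 ± 0.21 (SE) (adjusted p = 3.7e-05), a ratio of non-CSC to CSC means of 12.3, and COL9A3 fell by 4.39 ± 0.20 (adjusted p = 1.3e-05), a ratio of 31.7. In HCC1937 COL9A2 was at 0.881, 1.29 and 0.536 FPKM in CSCs and 1.95, 2.01 and 1.72 FPKM in non-CSCs, a fall by 1.06 ± 0.29 (adjusted p = 0.0446), not called without CSC replicate 1 or non-CSC replicate 1, 2 or 3 (adjusted p from 0.0919 to 0.126). That call was also lost with a pseudocount of 0.01 (adjusted p = 0.058), TPM (0.0637), quantile normalization (0.0535) and no minimum (0.169). COL9A3 overlapped between the HCC1937 fractions, at 0.284, 0.208 and 0.221 FPKM and 0.579, 0.314 and 0.245 FPKM (−0.45 ± 0.26, adjusted p = 0.277), and its effect differed between the lines by −3.94 ± 0.35 (adjusted p = 7.1e-06).

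COL12A1 and COL16A1 were the abundant FACIT chains. COL12A1, which links type I fibrils to other matrix, was at 33.2, 30.4 and 32.2 FPKM in SUM149PT CSCs and 16.4, 15.8 and 16.7 FPKM in non-CSCs, but at 3.09, 3.13 and 3.56 FPKM in HCC1937 CSCs and 5.52, 5.64 and 6.22 FPKM in non-CSCs. It thus moved in opposite directions, with no overlap in either line. COL12A1 rose by 0.97 ± 0.06 (SE) in SUM149PT CSCs (adjusted p = 3.8e-05) and fell by 0.81 ± 0.09 in HCC1937 CSCs (adjusted p = 0.00212), a difference of 1.78 ± 0.10 (adjusted p = 3.8e-07). COL16A1, found near basement membranes and in cartilage, was at 61.3, 65.5 and 61.6 FPKM in SUM149PT CSCs, 49.2, 51.4 and 49.9 FPKM in non-CSCs and 81.9, 99.8 and 93.2 FPKM in SUM159PT, where its FPKM was highest. Its difference between SUM159PT and SUM149PT CSCs turned under TPM and quantile normalization, with the values given below. In HCC1937 its fractions overlapped, between 4.65 and 6.91 FPKM. The rise in SUM149PT CSCs was 0.32 ± 0.06, or 0.43 relative to the median (adjusted p = 0.00289), the HCC1937 difference was −0.17 ± 0.14 (adjusted p = 0.44), and the lines differed by 0.50 ± 0.16 (adjusted p = 0.0206).

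Of the short-chain network collagens, which form open lattices under the endothelium and in the cornea, COL8A1 was at 16.1, 15.6 and 14.7 FPKM in SUM149PT CSCs and 5.41, 5.29 and 6.08 FPKM in non-CSCs. In FPKM it was highest in SUM159PT, at 22.03, 26.9 and 24.8, and low in HCC1937, at 0.734, 1.14 and 1.02 FPKM in CSCs and 0.483, 0.607 and 0.437 FPKM in non-CSCs. Its difference between SUM159PT and SUM149PT CSCs turned under TPM, with the value given below. CSC libraries were above non-CSC libraries in both lines. The rise was 1.45 ± 0.08 (SE) in SUM149PT (adjusted p = 2.2e-05) and 0.80 ± 0.18 in HCC1937 (adjusted p = 0.0273), the latter not called without CSC replicate 2 or 3 or non-CSC replicate 1 or 3 (adjusted p from 0.0761 to 0.0906) or without a minimum (0.109). Its partner COL8A2 did not exceed 0.459 FPKM in any library, and COL10A1, of the growth plate, was listed at 0 in all 15.

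COL7A1 forms the anchoring fibrils that tie the epithelial basement membrane to the connective tissue beneath. It was the most abundant collagen of SUM149PT CSCs, at 261, 273 and 252 FPKM, against 52.5, 53.8 and 57.8 FPKM in SUM149PT non-CSCs. It stood at 17.7, 26.6 and 27.5 FPKM in SUM159PT and at 2.82, 3.13 and 2.62 FPKM in HCC1937 CSCs and 2.28, 2.57 and 2.58 FPKM in HCC1937 non-CSCs. The 3 lines did not overlap. CSCs lay above non-CSCs in each sorted line, but in HCC1937 the lowest CSC library was at 2.62 FPKM and the highest non-CSC library at 2.58 FPKM. COL7A1 rose by 2.26 ± 0.07 (SE) in SUM149PT CSCs (adjusted p = 3.6e-06), a ratio of 4.79, while the HCC1937 difference of 0.20 ± 0.10 did not pass (adjusted p = 0.196); the effect was larger in SUM149PT by 2.06 ± 0.11 (adjusted p = 2.6e-07). The 250 bases of GRCh38.p14 before its start, chr3:48595330-48595579 on the minus strand and free of annotated exons, are shown as those of the collagen with the highest level. Capitals mark 3 matches of GGGCGG and 1 of TATAAA, each read on either strand, motifs held by 42.6% and 10.7% of all upstream windows.
COL7A1: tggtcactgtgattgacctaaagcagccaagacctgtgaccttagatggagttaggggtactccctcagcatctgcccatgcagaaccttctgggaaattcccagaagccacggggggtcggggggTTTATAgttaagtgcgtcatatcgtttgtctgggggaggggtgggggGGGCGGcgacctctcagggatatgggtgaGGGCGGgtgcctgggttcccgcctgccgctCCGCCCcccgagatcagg

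Among transmembrane collagens, COL17A1, the hemidesmosome collagen that fastens basal epithelial cells to the basement membrane, was highest in HCC1937. It was at 7.49, 8.13 and 7.88 FPKM in HCC1937 CSCs and 22.4, 23.5 and 25.2 FPKM in non-CSCs, against 1.43, 1.47 and 1.55 FPKM in SUM149PT CSCs, 1.11, 1.005 and 0.971 FPKM in non-CSCs and 0.839, 1.05 and 1.15 FPKM in SUM159PT. It was therefore lower in CSCs than in non-CSCs of HCC1937 and higher in CSCs of SUM149PT, in every library. COL17A1 fell by 1.58 ± 0.08 (SE) in HCC1937 CSCs (adjusted p = 0.000192) and rose by 0.49 ± 0.07 in SUM149PT CSCs (adjusted p = 0.00137), with a difference between the lines of 2.07 ± 0.10 (adjusted p = 1.1e-07). Its upstream sequence is shown because the gene moved in opposite directions in the lines. An annotated exon of the gene overlaps the 250-base window, so 173 exon-free bases are given, GRCh38.p14 chr10:104085958-104086130 on the minus strand, with 1 match each of TATAAA and CCAAT (read as ATTGG) in capitals.
COL17A1: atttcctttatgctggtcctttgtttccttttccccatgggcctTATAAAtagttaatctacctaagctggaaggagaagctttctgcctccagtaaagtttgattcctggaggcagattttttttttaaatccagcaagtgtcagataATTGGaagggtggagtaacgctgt

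COL13A1, a transmembrane collagen of cell adhesion sites, was at 3.21, 3.78 and 4.32 FPKM in SUM149PT CSCs and 0.736, 0.532 and 0.842 FPKM in non-CSCs, and at 4.83, 4.24 and 3.52 FPKM and 2.49, 2.99 and 2.52 FPKM in HCC1937. CSCs were higher in both lines, and SUM159PT was lower than every sorted library, at 0.289 to 0.313 FPKM. The rise was 2.28 ± 0.18 (SE) in SUM149PT (adjusted p = 0.000104) and 0.63 ± 0.14 in HCC1937 (adjusted p = 0.025). The HCC1937 call was lost without CSC replicate 1 or 2 or non-CSC replicate 1 or 3 (adjusted p from 0.0537 to 0.0881), with the replicate block (0.0539) and without a minimum (0.093). COL23A1, another transmembrane collagen, exceeded 1 FPKM only in SUM159PT, at 1.12, 1.02 and 1.02 FPKM, and did not exceed 0.383 FPKM elsewhere.

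Multiplexins are basement membrane collagens that carry a proteoglycan part. COL18A1, whose C-terminal fragment is endostatin, was at 84.03, 87.2 and 81.5 FPKM in SUM149PT CSCs and 17.04, 17.6 and 20.1 FPKM in non-CSCs, at 18.7, 16.8 and 15.9 FPKM in HCC1937 CSCs and 22.1, 24.5 and 22.1 FPKM in non-CSCs, and at 51.9, 61.9 and 58.3 FPKM in SUM159PT. CSCs were higher than non-CSCs in SUM149PT and lower in HCC1937, without overlap. COL18A1 rose by 2.20 ± 0.08 (SE) in SUM149PT CSCs (adjusted p = 6.5e-06) and fell by 0.42 ± 0.09 in HCC1937 CSCs (adjusted p = 0.0227). The difference of 2.62 ± 0.12 was the largest positive one of any collagen (adjusted p = 8.5e-08). In HCC1937 the call was lost without CSC replicate 2 or 3 or any of the 3 non-CSC libraries (adjusted p from 0.0541 to 0.0798), with the replicate block (0.063) and without a minimum (0.0586), so the opposite directions rest on a fall that was not called in these fits. COL15A1, the other multiplexin, averaged 0.176 FPKM in SUM149PT CSCs and 0.574 FPKM in non-CSCs, a fall by 1.26 ± 0.17 (adjusted p = 0.000947), and differed by 0.35 ± 0.16 in HCC1937 (adjusted p = 0.168), an interaction of −1.61 ± 0.24 (adjusted p = 0.000262). Antisense entries of COL18A1 and COL4A2 were at 0.0235 FPKM or less, and as the strand of the reads is not given in the sources used here, antisense reads would not be told apart.

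COL28A1, a von Willebrand factor A domain collagen of the peripheral nerve, was at 1.59, 2.62 and 1.68 FPKM in SUM159PT and did not exceed 0.132 FPKM in the sorted libraries. The genes not described above were 3 fibrillar chains of cartilage or developing tissue (COL2A1, COL11A1 and COL24A1), 5 FACIT chains (COL14A1, COL19A1, COL20A1, COL21A1 and COL22A1), the beaded filament chains COL6A5 and COL6A6, the transmembrane COL25A1 and COL26A1, an extracellular matrix collagen. Listed at 0 in all 3 libraries were 5 of the 44 genes in SUM149PT CSCs, 3 in SUM149PT non-CSCs, 9 in HCC1937 CSCs, 7 in HCC1937 non-CSCs and 9 in SUM159PT.

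Fewer genes of any kind were called in HCC1937 than in SUM149PT, and this held for collagens. With 1 library left out in turn, 6 to 9 collagens rose and 2 to 4 fell in HCC1937 CSCs, against 10 and 5 with all libraries, and 18 rose and 7 to 8 fell in SUM149PT CSCs. The HCC1937 count of rises was 6 without CSC replicate 2, non-CSC replicate 1 or non-CSC replicate 3. The count of falls was 3 without CSC replicate 1 or 2, and 2 without any of non-CSC replicates 1, 2 and 3. Over all genes the HCC1937 calls went from 1607 higher and 2378 lower to 1049 to 1270 and 1660 to 2375. The SUM149PT calls went from 5345 and 6648 to 4877 to 5172 and 6159 to 6415. COL1A1, COL1A2, COL5A1, COL4A1, COL4A2, COL4A6, COL12A1 and COL17A1 kept their HCC1937 calls whichever library was left out.

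Between lines, collagens were compared in a fit over all 15 libraries in 5 groups, with 29 genes tested among 16373. In CSCs, 16 collagens were lower in HCC1937 than in SUM149PT, where 31.8% of all genes were called lower, and 6 were higher, where 45.1% were. In non-CSCs, 17 were lower (35.4% of all genes) and 9 higher (41.4%). The median over the collagens was −0.55 in CSCs and −1.48 in non-CSCs, against 0.22 and 0.09 over all genes, and upper quartile scaling moved the median of all genes in CSCs to 0.04 and that in non-CSCs to −0.06. Some differences are therefore also given relative to the median of all genes.

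On the log2(FPKM + 0.1) scale the widest gap in CSCs was that of COL6A3, lower in HCC1937 by 317-fold as a ratio of means (−7.67 ± 0.17 (SE), −7.89 relative to the median, adjusted p = 1.1e-12). COL7A1 followed with a ratio of 91.7 (−6.47 ± 0.14, −6.69 relative to the median, adjusted p = 1.0e-12), then COL3A1, which this scale understates as its HCC1937 level was below 0.1 FPKM (−5.83 ± 0.09, −6.05 relative, adjusted p = 8.2e-14) and COL5A2 (−4.97 ± 0.18, −5.19 relative, adjusted p = 7.5e-11). Fibrillar chains were lower in HCC1937 CSCs in 6 of 8 genes tested, where 31.8% of all genes were called lower. COL1A2 was the exception that was higher (2.26 ± 0.17, 2.04 relative, adjusted p = 8.3e-08). The chains higher in HCC1937 CSCs were COL1A2, COL4A5 (0.69, 0.47 relative), COL6A1 (0.93, 0.71 relative), COL6A2, COL17A1 (2.32, 2.11 relative) and COL23A1 (1.25, 1.03 relative). Of these, COL6A2 differed by 0.24 ± 0.08 (adjusted p = 0.0156), only 0.02 relative to the median, and was not called under TPM or upper quartile scaling (adjusted p = 0.0565 and 0.557) or without SUM149PT CSC replicate 1 or HCC1937 CSC replicate 1 (adjusted p = 0.0553 and 0.063). COL13A1 (0.15, adjusted p = 0.402) and COL9A2 (0.20, adjusted p = 0.465) did not pass, and took the other sign under upper quartile scaling (−0.0407) and quantile normalization (−0.0542) respectively.

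In non-CSCs the same lines differed in other genes as well, and this comparison shares no library with that of the CSCs. COL17A1 was 23.0 times as high in HCC1937 non-CSCs by the ratio of means (4.40 ± 0.10 (SE), 4.31 relative to the median, adjusted p = 1.7e-12). COL9A3 was lower by 3.64 ± 0.23 (adjusted p = 1.9e-08), whereas in CSCs its difference of 0.31 ± 0.23 did not pass (adjusted p = 0.25). COL4A6 was higher in HCC1937 non-CSCs by 1.67 ± 0.09 (adjusted p = 3.7e-09) and lower in HCC1937 CSCs, by −0.36 (adjusted p = 0.00288). COL18A1 was lower in HCC1937 CSCs, by −2.29 ± 0.09 (adjusted p = 1.8e-10), and slightly higher in its non-CSCs, by 0.33 ± 0.09 (adjusted p = 0.00538), the latter not called under TPM, upper quartile or quantile scaling (adjusted p from 0.0919 to 0.254). COL6A1, higher in HCC1937 non-CSCs by 0.25 ± 0.07 (adjusted p = 0.00672), lost its call under the same scalings (adjusted p from 0.16 to 0.342). COL5A1 was lower by 0.36 ± 0.12 (adjusted p = 0.0132), a call lost without SUM149PT non-CSC replicate 3 or HCC1937 non-CSC replicate 1 (adjusted p = 0.053 and 0.0641).

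SUM159PT was compared with the CSC groups of the sorted lines, and these comparisons share the SUM159PT libraries. The median of all genes was −0.60 against SUM149PT CSCs and −0.85 against HCC1937 CSCs, and it moved to −1.63 and −1.83 under TPM, to −0.31 and −0.36 under upper quartile scaling and to 0.06 and 0.02 under quantile normalization. Against SUM149PT CSCs, 19 collagens were lower (53.3% of all genes) and 5 higher (28.3%); the counts were 23 and 3 under TPM, 16 and 8 under upper quartile scaling and 17 and 9 under quantile normalization. The share of higher calls among all calls was 34.7%, 17.3% under TPM, 42.1% under upper quartile scaling and 50.6% under quantile normalization. Against HCC1937 CSCs, 11 were lower (57.2% of all genes) and 12 higher (27.6%), with 17 and 10 under TPM, 8 and 16 under upper quartile scaling and 7 and 18 under quantile normalization. There the share of higher calls among all was 32.5%, 17.1% under TPM, 42.9% under upper quartile scaling and 50.1% under quantile normalization.

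Several differences kept their direction under each of these scalings. COL27A1 was lower in SUM159PT than in SUM149PT CSCs, with a difference of −4.002 ± 0.12 (SE), −3.40 relative to the median (adjusted p = 3.8e-12), and COL7A1 likewise, with −3.47 ± 0.14, −2.87 relative (adjusted p = 6.6e-11). COL1A1 and COL3A1 differed by −3.42 ± 0.09 and −3.42 ± 0.09, −2.82 and −2.81 relative (adjusted p = 1.8e-12 and 1.1e-12). COL28A1 and COL23A1 were higher in SUM159PT, by 4.01 ± 0.23 and 3.31 ± 0.21 (adjusted p = 2.7e-09 and 6.4e-09). COL28A1 passed the minimum over the 15 libraries only through SUM159PT, with means of 1.97 FPKM there and 0.0263 FPKM in SUM149PT CSCs. Against HCC1937 CSCs, SUM159PT was higher in COL6A3 (5.97 ± 0.17, 6.82 relative, adjusted p = 1.7e-12), COL8A1 (4.55 ± 0.14, 5.40 relative, adjusted p = 5.1e-12), COL16A1 (3.97 ± 0.11, 4.82 relative, adjusted p = 2.2e-12) and COL7A1 (2.998 ± 0.14, 3.85 relative, adjusted p = 2.7e-10), and lower in COL13A1, COL17A1 and COL4A5 (−3.42, −2.85 and −2.29, with −2.57, −1.997 and −1.45 relative). Each of these was separate from the compared group in 3 of 3 libraries.

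Other SUM159PT differences turned with the scaling. COL16A1 was higher than in SUM149PT CSCs by 0.54 ± 0.11 (SE) (adjusted p = 0.000727), 1.14 relative to the median, but by −0.55 under TPM and −0.0726 under quantile normalization, and COL8A1 was higher by 0.66 ± 0.14 (adjusted p = 0.000879), 1.26 relative, but −0.43 under TPM. COL17A1 and COL5A3 were lower than in SUM149PT CSCs (−0.52 and −0.59), near the median of all genes of −0.60. Under quantile normalization both were higher (0.96 and 0.78). COL1A1 exceeded HCC1937 CSCs by 0.86 ± 0.09, 1.71 relative to the median, and by −0.14 under TPM. COL6A2 was lower than in HCC1937 CSCs by 0.40 ± 0.08, yet higher relative to the median by 0.45 and by 0.24 under upper quartile scaling.

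Genes that modify, process and bind collagen were taken from lists. Of 20 modifying enzymes and chaperones, which hydroxylate and glycosylate the chains and help them fold, 19 were tested in each line, and 11 rose and 6 fell in SUM149PT CSCs, with a median of 0.46 against −0.11 over all genes, of which 33.3% were called higher and 41.5% lower. LEPREL1, a prolyl 3-hydroxylase, rose by 2.15 ± 0.06 (SE), LEPREL2, of the same family, by 1.76 ± 0.10, and PLOD2, a lysyl hydroxylase, fell by 1.99 ± 0.09 (adjusted p = 3.0e-06, 3.0e-05 and 1.2e-05). In HCC1937 CSCs 12 rose and 0 fell, where 10.3% of all genes were called higher and 15.3% lower. The median of the list was 0.41 against −0.03 over all genes. The rises were led by P4HA3, a prolyl 4-hydroxylase subunit, at 1.47 ± 0.12, PLOD2 at 1.05 ± 0.07 and LEPRE1, a prolyl 3-hydroxylase, at 0.93 ± 0.10 (adjusted p = 0.000754, 0.000464 and 0.0018). PLOD2 thus moved in opposite directions in the lines, with an interaction of −3.04 ± 0.11 (adjusted p = 2.1e-08). The HCC1937 difference of LEPREL2, 0.70 ± 0.33, did not pass (adjusted p = 0.184) but was called in a fit over all 15 libraries (adjusted p = 0.0391), and its interaction was 1.06 ± 0.37 (adjusted p = 0.0306).

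Of 14 processing and crosslinking enzymes, 13 were tested in SUM149PT, where 6 rose and 4 fell (33.3% and 41.5% of all genes), and 11 in HCC1937, where 5 rose and 2 fell (10.3% and 15.3% of all genes). PXDN, which crosslinks type IV collagen, fell by 4.38 ± 0.09 (SE) in SUM149PT CSCs (adjusted p = 1.8e-06) while COL4A1 and COL4A2 rose there, and rose by 0.56 ± 0.09 in HCC1937 CSCs (adjusted p = 0.00665), an interaction of −4.94 ± 0.12 (adjusted p = 4.9e-09). ADAMTS2, a procollagen N-proteinase, rose by 2.52 ± 0.16 in SUM149PT and 2.31 ± 0.27 in HCC1937 CSCs (adjusted p = 4.3e-05 and 0.00272), and ADAMTS14, of the same family, rose by 1.85 ± 0.08 in SUM149PT (adjusted p = 1.1e-05) and fell by 1.02 ± 0.11 in HCC1937 (adjusted p = 0.00206), an interaction of 2.87 ± 0.14 (adjusted p = 1.1e-07). LOX and LOXL2, lysyl oxidases that crosslink fibrils, rose by 2.06 ± 0.20 and 1.04 ± 0.07 in HCC1937 CSCs (adjusted p = 0.00132 and 0.000497). In SUM149PT CSCs LOX fell by 0.42 ± 0.08 and LOXL2 rose by 1.25 ± 0.05 (adjusted p = 0.00363 and 8.6e-06), the LOX call being lost in a fit over all 15 libraries (adjusted p = 0.0519), with an interaction for LOX of −2.48 ± 0.22 (adjusted p = 7.1e-06).

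Of 10 collagen receptors 7 were tested in each line, with 4 higher and 2 lower in SUM149PT CSCs (33.3% and 41.5% of all genes) and 3 higher and 1 lower in HCC1937 CSCs (10.3% and 15.3% of all genes). DDR1, an epithelial collagen receptor kinase, was at 11.6, 9.97 and 10.7 FPKM in SUM149PT CSCs and 263, 256 and 256 FPKM in non-CSCs and fell by 4.58 ± 0.07 (SE) (adjusted p = 1.5e-06). In HCC1937 it was low, at 0, 0.234 and 0.140 FPKM in CSCs and 1.81, 4.76 and 2.90 FPKM in non-CSCs. It fell there by 3.92 ± 0.55 (adjusted p = 0.00489), a size that depends on the pseudocount as the CSC levels are near 0. ITGA1 fell by 3.10 ± 0.09 and ITGA11 rose by 2.45 ± 0.13 in SUM149PT CSCs (adjusted p = 3.8e-06 and 2.1e-05), both being integrin alpha chains that bind collagen. In HCC1937 ITGA1 differed by 0.95 ± 0.29, which did not pass (adjusted p = 0.0625) but was called with a pseudocount of 1, quantile normalization, an eBayes trend, the replicate block, a fit over all 15 libraries and without non-CSC replicate 2 (adjusted p from 0.00497 to 0.0486). ITGA11 was not tested there, with means of 0.0517 FPKM in CSCs and 0.0118 FPKM in non-CSCs. The interactions were −4.04 ± 0.32 for ITGA1 and 2.01 ± 0.16 for ITGA11 (adjusted p = 3.1e-06 and 3.7e-06). ITGA11 passed the minimum for the interaction through SUM149PT. Its HCC1937 levels lie below the pseudocount of 0.1, so the scale understates its difference there and the interaction depends on it. In HCC1937 CSCs MRC2, an endocytic collagen receptor, rose by 1.48 ± 0.09 and DDR2, the receptor kinase of mesenchymal cells, by 1.06 ± 0.14 (adjusted p = 0.000422 and 0.00351). In SUM149PT MRC2 rose by 1.36 ± 0.06 (adjusted p = 9.9e-06) and the DDR2 difference of 0.42 ± 0.16 did not pass (adjusted p = 0.0565). DDR2 was called there under upper quartile scaling, in a fit over all 15 libraries and without non-CSC replicate 3 (adjusted p = 0.046, 0.0284 and 0.0196), and under quantile normalization with 1.01 (adjusted p = 0.00191), with an interaction for DDR2 of −0.64 ± 0.22 (adjusted p = 0.029).

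Epithelial, fibroblast, leukocyte and endothelial markers were read as lists. The 7 epithelial markers (EPCAM, CDH1 and 5 keratins) all fell in the CSCs of both lines, where 41.5% of all genes in SUM149PT and 15.3% in HCC1937 were called lower. These markers had a median of −4.44 in SUM149PT (−0.11 over all genes) and −1.52 in HCC1937 (−0.03 over all genes). Their summed level was 129, 134 and 131 FPKM in SUM149PT CSCs and 1825, 1782 and 1805 FPKM in non-CSCs, where KRT19 led. In the CSC libraries KRT19 or KRT18 was the most abundant. The sum was 635, 588 and 532 FPKM in HCC1937 CSCs, 1617, 1639 and 1403 FPKM in HCC1937 non-CSCs and 293, 277 and 292 FPKM in SUM159PT, with KRT8 or KRT18 the most abundant. Each of the 7 stayed above 0.1 FPKM in the 12 sorted libraries, and 2, EPCAM and CDH1, lay below it in SUM159PT.

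Of 6 fibroblast markers 5 were tested in SUM149PT, where 33.3% of all genes were called higher and 41.5% lower. PDGFRA and PDGFRB rose there in CSCs and DCN, LUM and FAP fell. In HCC1937 2 were tested and FAP rose, where 10.3% of all genes were called higher and 15.3% lower. The sum of the 6 markers was 17.9, 17.6 and 17.9 FPKM in SUM149PT CSCs, led by PDGFRB, and 23.5, 21.3 and 20.5 FPKM in non-CSCs, led by DCN. It was 3.96, 3.44 and 3.71 FPKM in HCC1937 CSCs and 0.803, 1.62 and 1.13 FPKM in non-CSCs, led by FAP, and 23.8, 28.8 and 23.7 FPKM in SUM159PT, where FAP was listed at 0 in all 3 libraries. THY1 stayed below 0.1 FPKM in every sorted library, and DCN was listed at 0 in HCC1937 non-CSCs. The leukocyte and endothelial markers PTPRC, PECAM1 and CDH5 summed to at most 1.08 FPKM in any library, with PTPRC at 0.0986 FPKM or less. Of these 3, 2 were tested in each line. In SUM149PT CSCs 2 fell (median −1.95), where 41.5% of all genes were called lower. In HCC1937 CSCs 1 fell (median −0.52), where 15.3% were. CDH5 passed the minimum in each line only through the non-CSC libraries. Its means were 0.0124 FPKM in SUM149PT CSCs and 0.630 FPKM in non-CSCs, and 0.0706 and 0.301 FPKM in HCC1937. The part of these epithelial, fibroblast, leukocyte and endothelial markers in the collagen differences was not tested.

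Beyond the type IV pairs, other collagen genes lie close together. COL3A1 and COL5A2 are 19.2 kb apart on chromosome 2 and both rose in SUM149PT CSCs, by 2.26 and 2.67. COL6A1 and COL6A2 are 93.1 kb apart on chromosome 21 and moved in opposite directions there, by −0.48 and 0.27, while COL18A1, 468 kb from COL6A1, rose by 2.20. The RefSeq promoter table held 44 starts of 32 collagen genes. CCAAT was found in 12 of these starts (27.3%, against 32.0% of all), GGGCGG in 24 (54.5%, against 42.6%) and TATAAA in 8 (18.2%, against 10.7%), a description of the letters and not of sites in use.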

How the data were processed

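The values analysed are FPKM per gene that the authors deposited for the 15 libraries. The submitters' processing notes name Bowtie2 and the GRCh38 build; versions, annotation and read strand are not given in the sources used here. Every gene was tested with limma 3.58.1 in R 4.3.3 (lmFit and eBayes) on log2(FPKM + 0.1), keeping genes that averaged 0.1 FPKM or more across the fitted libraries, with Benjamini-Hochberg adjustment over all genes tested. Each sorted line had a fit over its 6 libraries, the interaction one over 12, and comparisons between lines one over 15. The code was tested on simulated data. Collagens averaging 1 FPKM or more in a group were named; those named below it were chosen after their values were seen. From the lists of modifying enzymes, processing enzymes and receptors, up to 3 called genes with the largest differences were named per line. Lists of sort, epithelial, fibroblast, leukocyte and endothelial markers were also read. The genes and lists were chosen with earlier results of these data known. Alternatives covered pseudocount, minimum level, scaling, eBayes trend, replicate block, call limits, the libraries fitted and each library left out. Low FPKM steps put relative depths at 0.853 to 1.08, with mismatches up to 0.210 log2. Replicate libraries correlated at 0.987 to 0.993. Promoters came from RefSeq GRCh38.p14. Tables and plots used matplotlib 3.10.9, scipy 1.17.1, numpy 2.4.6 and pandas 2.3.3 under Python 3.11.15.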

Additional observations from a re-analysis of the deposited data

Results flagged for a closer look

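The CSC effect, the log2 difference between CSC and non-CSC libraries, differed between SUM149PT and HCC1937 for 22 collagen genes by limma's interaction over 12 libraries, 14 in 1 direction and 8 in the other, where 28.1% and 33% of all genes were called. The counts were 12 and 6 with a pseudocount of 0.01, 13 and 7 under TPM and 14 and 6 under quantile normalization. Over all genes the calls were 4357 and 5244, 3907 and 5690, and 5416 and 4792 in that order, from 4627 and 5426. Calls lost in these settings were those of COL1A2, COL4A3, COL6A3 and COL8A1 with the pseudocount, COL1A2 and COL8A1 under TPM, and COL1A2 and COL4A4 under quantile normalization. Values are SUM149PT minus HCC1937, each from 3 libraries per fraction and line. Among fibrillar chains the effect was more positive in SUM149PT for COL5A2 (2.06, adjusted p = 9.3e-05), COL3A1 (1.92, adjusted p = 6.5e-07), COL1A1 (1.43, adjusted p = 6.0e-06) and COL5A1 (1.08, adjusted p = 0.000133), and more negative for COL5A3 (−1.86, adjusted p = 1.8e-05) and COL1A2 (−0.99, adjusted p = 0.00837). Among type IV chains it was more positive for COL4A6 (2.03, adjusted p = 4.4e-07) and COL4A5 (1.56, adjusted p = 3.3e-07), and more negative for COL4A3 (−1.45, adjusted p = 0.000526) and COL4A4 (−0.81, adjusted p = 0.00143). In type VI collagen COL6A3 differed by 1.61 (adjusted p = 0.000192; 0.89 with a pseudocount of 0.01) and COL6A1 by −0.68 (adjusted p = 0.000183).

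For the FACIT chains the values were 1.78 for COL12A1 (adjusted p = 3.8e-07), 0.50 for COL16A1 (adjusted p = 0.0206), −2.42 for COL9A2 (adjusted p = 0.00034) and −3.94 for COL9A3 (adjusted p = 7.1e-06). The remaining ones were COL18A1 (2.62, adjusted p = 8.5e-08), COL17A1 (2.07, adjusted p = 1.1e-07), COL7A1 (2.06, adjusted p = 2.6e-07), COL13A1 (1.65, adjusted p = 0.000219), COL8A1 (0.66, adjusted p = 0.0196) and COL15A1 (−1.61, adjusted p = 0.000262). Of these genes COL12A1, COL17A1, COL18A1 and COL5A3 were called in opposite directions in the lines; the HCC1937 calls of COL18A1 and COL5A3 were lost with some libraries left out.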

How the results depend on the processing

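The labels do not say that replicates were separate cultures, absolute read depth is unknown, and differences between SUM159PT and the sorted lines depend on how the libraries are scaled. Within SUM149PT and within HCC1937 no collagen followed through the alternatives reversed; calls were lost mostly in HCC1937. Where a value moved, the cause was not tested.

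Leaving out 1 library in turn, the collagens called in SUM149PT CSCs numbered 18 to 18 higher and 7 to 8 lower, and in HCC1937 CSCs 6 to 9 higher and 2 to 4 lower. The interaction gave 14 to 15 and 7 to 8, HCC1937 against SUM149PT 5 to 7 and 16 to 16 in CSCs and 9 to 9 and 15 to 17 in non-CSCs, and SUM159PT 5 to 5 and 19 to 20 against SUM149PT CSCs and 11 to 12 and 11 to 12 against HCC1937 CSCs, higher and lower in that order. Over all genes the calls also fell, from 5345 and 6648 to 4877 to 5172 and 6159 to 6415 in SUM149PT, and from 1607 and 2378 to 1049 to 1270 and 1660 to 2375 in HCC1937. The interaction gave 4303 to 4751 and 5048 to 5394 (from 4627 and 5426). HCC1937 against SUM149PT gave 7052 to 7272 and 4948 to 5191 in CSCs (from 7391 and 5200) and 6458 to 6593 and 5474 to 5605 in non-CSCs (from 6777 and 5791). SUM159PT gave 4455 to 4529 and 8503 to 8615 against SUM149PT CSCs (from 4638 and 8733) and 4317 to 4555 and 9147 to 9332 against HCC1937 CSCs (from 4515 and 9369).

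Counts that moved by more than 1.5 times are given with the count they replace. With a minimum mean of 1 FPKM, 4 collagens fell in SUM149PT (from 7), 6 rose in HCC1937 (from 10), 4 had a more negative interaction (from 8) and 2 were higher in SUM159PT than in SUM149PT CSCs (from 5). Over all genes these calls numbered 5028 (from 6648), 1554 (from 1607), 4341 (from 5426) and 4037 (from 4638), in that order. Without a minimum, 6 rose and 2 fell in HCC1937 (from 10 and 5), and over all genes 1174 and 1797 (from 1607 and 2378). A pseudocount of 0.01 left 3 falls in HCC1937 (from 5), and TPM left 3. Over all genes the falls there were 2282 with the pseudocount and 1755 under TPM (from 2378). TPM also gave 3 higher in SUM159PT than in SUM149PT CSCs (from 5) and 17 lower than in HCC1937 CSCs (from 11). Upper quartile scaling gave 8 higher against SUM149PT CSCs, and quantile normalization 9 higher there and 7 lower against HCC1937 CSCs. Over all genes, TPM, upper quartile scaling and quantile normalization gave 2336, 5704 and 6747 higher against SUM149PT CSCs (from 4638). Against HCC1937 CSCs, TPM gave 11687 lower and quantile normalization 6808 (from 9369). Under the stricter limits of 0.0001 for adjusted p and 1 for the absolute difference, 4 fell in SUM149PT, the interaction counts were 9 and 2 (from 14 and 8, over all genes 1172 and 1750, from 4627 and 5426), 2 were higher in HCC1937 than in SUM149PT CSCs (from 6), and SUM159PT counts were 3 and 12 against SUM149PT CSCs (from 5 and 19) and 7 lower against HCC1937 CSCs (from 11). Over all genes these limits gave 2055 lower in SUM149PT (from 6648) and 3630 higher in HCC1937 than in SUM149PT CSCs (from 7391). For SUM159PT they gave 2742 and 6403 against SUM149PT CSCs (from 4638 and 8733) and 7026 lower against HCC1937 CSCs (from 9369). By limma, 0 rose and 0 fell in HCC1937 at these limits, as did 0 of all genes tested, where 12 collagens were higher and 5 lower at an unadjusted p under 0.05, 4 and 3 of them by at least 1. Under limits of 0.05 and 1, 4 rose and 3 fell in HCC1937 (422 and 935 of all genes), 5 had a more negative interaction (2990 of all genes), 3 were higher in HCC1937 than in SUM149PT CSCs (4198 of all genes) and 3 in SUM159PT than in SUM149PT CSCs (3134 of all genes).

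The sample titles give the CSC and non-CSC libraries of a line the same numbers. Whether libraries sharing a number came from the same sorted culture is not stated. Deviations from the group means correlated at 0.136, 0.0287 and 0.120 in SUM149PT for pairs 1, 2 and 3. In HCC1937 they correlated at −0.158, −0.0504 and −0.0355. Not every library correlated best with its own number (SUM149PT CSC replicate 2 did so with non-CSC replicate 3, at 0.0688). With so few libraries these correlations cannot decide whether the fractions were paired, and the main fits treated them as unpaired. With the replicate number as a block, 18 collagens rose and 7 fell in SUM149PT, 10 rose and 3 fell in HCC1937 (from 5), and the interaction counts were 14 and 8. Over all genes the block gave 5094 higher and 6398 lower in SUM149PT (from 5345 and 6648). It gave 1161 and 1905 in HCC1937 (from 1607 and 2378), and 4435 and 5213 for the interaction (from 4627 and 5426).

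Reversed values follow, none of them within a line. The interaction of COL4A1 (0.05) was −0.0500 under TPM and −0.0653 without HCC1937 non-CSC replicate 2, and that of COL11A2 (0.46) was −0.0173 with a pseudocount of 1 and −0.15 without SUM149PT non-CSC replicate 1 or 2, and 1.69 without replicate 3. Between HCC1937 and SUM149PT CSCs, COL13A1 (0.15) was −0.0407 under upper quartile scaling and COL9A2 (0.20) −0.0542 under quantile normalization, with −0.0684 to 0.495 over libraries left out (lowest without HCC1937 CSC replicate 2). For SUM159PT against SUM149PT CSCs, TPM gave −0.55 for COL16A1 (0.54), −0.43 for COL8A1 (0.66) and −0.41 for COL9A3 (0.39); upper quartile scaling gave 0.36 for COL6A1 (−0.08) and 0.29 for COL6A2 (−0.15); and quantile normalization gave −0.0726 for COL16A1, 0.96 for COL17A1 (−0.52), 0.29 for COL4A4 (−0.60), 0.78 for COL5A3 (−0.59) and 0.35 for COL9A2 (−1.04). For SUM159PT against HCC1937 CSCs, TPM gave −0.14 for COL1A1 (0.86), −0.86 for COL4A2 (0.14), −0.42 for COL5A3 (0.53) and −0.74 for COL9A3 (0.09). Upper quartile scaling gave 0.59 for COL12A1 (−0.03), 0.13 for COL4A4 (−0.05), 0.17 for COL4A6 (−0.46) and 0.24 for COL6A2 (−0.40). Quantile normalization gave 1.23 for COL12A1, 0.54 for COL27A1 (−1.12), 0.86 for COL4A4, 0.35 for COL4A6 and 0.40 for COL9A2 (−1.24). Over libraries left out, COL12A1 ran from −0.18 to 0.0746, positive without SUM159PT replicate 1 (0.0746) or 2 (0.0121) or HCC1937 CSC replicate 3 (0.0329), and COL4A4 from −0.116 to 0.0112, positive without the last of these.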
